A study of Mus musculus with 12 samples.

Results

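One hour of induced RAF activity was set against no induction in mouse embryonic stem cells, with 6 of the 12 libraries of the series: 3 untreated and 3 after 1 h of 250 nM 4-hydroxytamoxifen (4OHT). The cells were E14tg2a, a widely used pluripotent line of 129SV background strain, and all groups carried a cRAF-ERT2 construct, a RAF kinase joined to an oestrogen receptor domain that 4OHT switches on. Each group held clones a, b and c, so that every clone gave 1 untreated and 1 treated library. All groups grew in serum with LIF and 2 µM Chir99021 (an inhibitor of GSK3), and moved 24 h before treatment to serum, LIF and the FGF receptor inhibitor PD173074 at 250 nM. All were given 5 mM ethynyl uridine for 15 min before harvest, and rRNA-depleted total RNA, old and new together, was sequenced. The controls were left untreated with no vehicle named, so effects of 4OHT itself and of RAF cannot be told apart in this design. The 3 clones are clones of 1 line. Steady differences between clones are taken out in the main fit. Its p-values measure the spread that is left between cultures, estimated over all 12 libraries of the series. The treatment protocol names only 0 and 2 h, and the times used here come from the sample titles.

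RAF phosphorylates the MEK kinases, which phosphorylate ERK1 and ERK2. Active ERK enters the nucleus and acts on transcription factors of the ETS and serum response factor (SRF) classes already bound at promoters, so that immediate-early genes such as those of the FOS, JUN and EGR families are transcribed without new protein synthesis. Others of the early targets, the Sprouty proteins and dual-specificity phosphatases, feed back on the pathway. In mouse embryonic stem cells FGF4 is the usual source of ERK activity, and ERK signalling moves cells away from naive pluripotency.

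Promoter sequence was available from RefSeq (GRCm38.p6, from 250 bases before to 50 after each annotated start) for 13 of the 20 genes with the largest rises among those at 1 CPM or more. Of those 13, Egr2 and Zfp36 held a CArG box, the site bound by SRF, and their 250 bases upstream are shown because these were the promoters with the site. Capitals mark the CArG box, which begins 72 bases before the Egr2 start at chr10:67537619-67537868 (plus strand) and 58 bases before the Zfp36 start at chr7:28379229-28379478 (minus strand). Both are printed 5′ to 3′ in the direction of the gene.
Egr2: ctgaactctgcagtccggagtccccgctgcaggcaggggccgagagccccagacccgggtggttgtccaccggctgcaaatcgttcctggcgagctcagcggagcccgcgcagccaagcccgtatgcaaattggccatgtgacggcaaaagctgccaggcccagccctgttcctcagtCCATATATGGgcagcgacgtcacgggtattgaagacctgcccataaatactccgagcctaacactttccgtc
Zfp36: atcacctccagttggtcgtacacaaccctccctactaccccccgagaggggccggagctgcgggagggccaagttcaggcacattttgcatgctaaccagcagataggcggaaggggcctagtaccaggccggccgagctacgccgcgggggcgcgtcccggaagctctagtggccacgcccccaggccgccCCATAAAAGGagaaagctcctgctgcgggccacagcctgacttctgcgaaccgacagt
Over all promoters available, 1.81% of 27025 symbols held a CArG box, and 1.57% of the matched tested genes did. Among the 33 matched of the 57 genes that rose at least 2-fold the share was 6.06%, which is the 2 genes shown. It was 2.31% among all matched genes that rose and 3.7%, or 1 gene, among those that fell at least 2-fold. The ETS core CCGGAA, searched on both strands, was in 21.2% of those 33 promoters, in 39.8% of the 605 matched among all genes that rose, and in 29.2% of the 10861 matched among tested genes. The cAMP response element TGACGTCA was in 6.28% of promoters of genes that rose and in 3.42% of those tested, and the AP-1 site TGANTCA in 4.96% and 6.35%. Among the 33 promoters of genes that rose at least 2-fold each of these sites was in 3, or 9.09%. No motif contains another. These shares are descriptions of letters in a window, and genes that rose also had more GC-rich transcripts (below).

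The 6 libraries held between 24213641 and 30173455 counted reads, and 14185 of 25897 gene symbols had enough reads to test. The library of untreated clone a stood apart before any comparison. Its deviation from the other libraries followed GC content: 0.18 (log2) for transcripts of 40% GC and -0.39 for those of 60%, while the other 5 libraries stayed between -0.08 and 0.07 at both points. Counts of many gene lists below are therefore also given without clone a, after the GC trend of every library was taken out, or both. Stem cell markers summed to 4090 to 4500 CPM (reads scaled to a common library size, not to gene length) in untreated and 4720 to 5150 in treated libraries. Of these 8 markers 3 rose past the threshold, against 5.41% of all tested genes. Marker lists of feeder fibroblasts (3.39 to 4.91 CPM summed, with Postn at 0), mesoderm (3.61 to 4.12), neural cells (4.42 to 9.59, with Neurog2 and Tubb3 at 0) and primitive endoderm (5.25 to 11.6) stayed low in all 6, and none of their tested members passed the threshold. Esr1, the oestrogen receptor gene, stood at 9.44, 93.4 and 38.8 CPM before treatment (here and below in the order a, b, c) and then at 18.1, 205.5 and 44.4 (adjusted p = 0.069 by edgeR). It passed under 3 of 20 alternative settings, among them the fit on the 6 libraries alone. Its level was highest in clone b and rose within every clone, although treated and untreated ranges overlapped. Whether reads of the construct entered the Esr1 count was not tested. Of 11 oestrogen response genes none passed with edgeR, DESeq2 or voom, and 2 had an unadjusted p below 0.05.

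After 1 h, 768 genes had risen and 224 had fallen at an adjusted p below 0.05 (edgeR quasi-likelihood test with clone as a block, Benjamini-Hochberg over all genes tested). These are 5.41% and 1.58% of the genes tested. At least 2-fold rises numbered 57 (0.402%), and at least 2-fold falls 32 (0.226%). All of these genes moved the same way in all 3 clones, as did 46.8% of all tested genes; a test within clones favours genes that do. In bulk RNA a change within cells and a change in the share of cells that hold a transcript cannot be told apart. Most changes were small: the median rise was 0.38 on the log2 scale (1.3-fold), and 570 of the 768 were under 0.5, whereas the median fall was 0.56 (1.47-fold). At the other end 16 genes had risen by 2 or more on the log2 scale, and no gene had fallen that far. Genes that fell were also thinly counted, with a median of 9.38 CPM against 76.6 for genes that rose and 19.5 for all tested. With library totals in place of TMM scaling, the split became 294 higher and 754 lower, and the median change of all genes moved from -0.02 to -0.12. All 20 rises and 15 falls named first in this text passed under that scaling too.

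**Figure D1:**
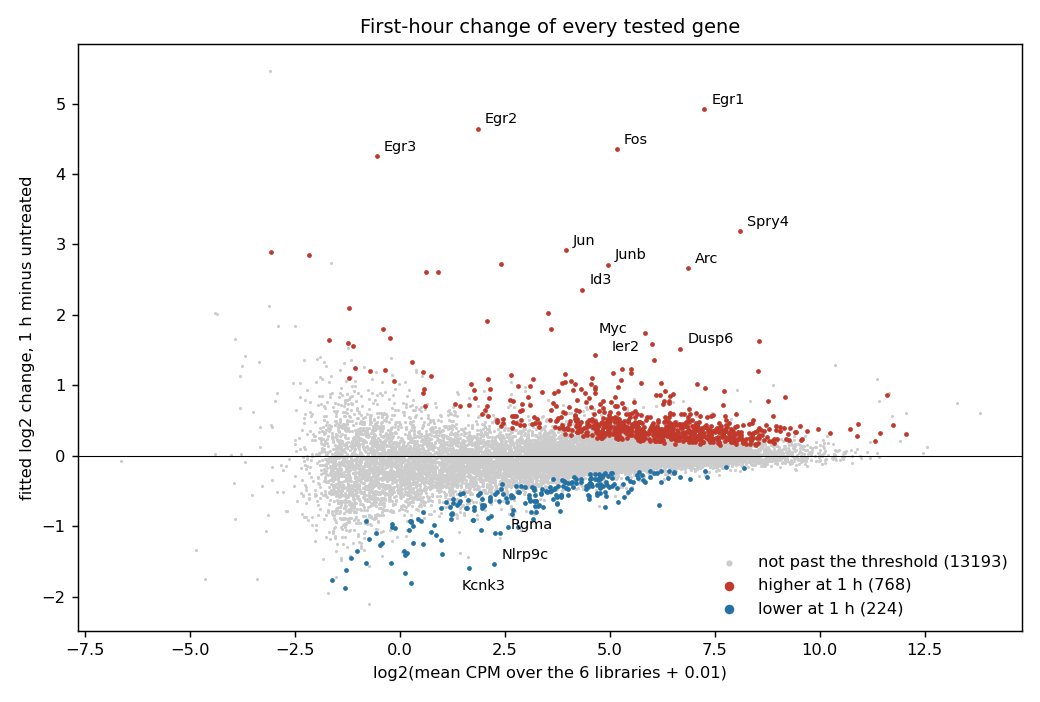
Each point is 1 of the 14185 tested genes, with its mean level over the 6 libraries (log2 CPM) on the x axis and its fitted log2 change at 1 h on the y axis. Red points (768) rose and blue points (224) fell past the threshold; Egr1, Egr2, Fos and Egr3 are the highest of the red points, at 4.26 to 4.92, and no fall reaches 2 on the log2 scale.

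Without the replicate block, 11 genes rose and 0 fell (1073 and 557 at an unadjusted p below 0.05), so nearly all of these calls rest on comparing each clone with itself. The 11 called in the unpaired fit were all among the 768. Single libraries also mattered. Leaving out untreated clone b left 152 rises and 13 falls, and leaving out untreated clone c left 580 and 67. Leaving out the treated library of clone a left 127 and 22, that of b 105 and 5, and that of c 415 and 47. Without untreated clone a there were 1049 and 587. Leaving out all libraries of clone a gave 1109 and 541, of clone b 55 and 0, and of clone c 12 and 0 (unadjusted 1390 and 611 without b, 1398 and 628 without c). Egr2, Fos, Spry4, Id3, Myc, Ier2 and Dusp6 passed under all 20 alternatives. Of the 133 genes that passed and that the naming rule selects, as few as 48 did so when 1 of the 6 libraries was left out, namely the treated library of clone b, and 59 without that of clone a or 57 without untreated clone b.

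The EGR family changed most. EGR proteins are zinc finger activators of growth and differentiation genes, and NAB1 and NAB2 are their corepressors. Egr1 was at 9.29, 5.93 and 8.79 CPM untreated and at 117, 456 and 310.1 at 1 h. Every treated library stood far above the highest untreated one, although the treated levels themselves spread widely, with clone b highest and clone a lowest. The fitted change was 4.92 ± 0.41 (log2, SE; adjusted p = 0.00014), and only without all libraries of clone c did it miss the threshold (adjusted p = 0.059). Egr2 went from 0.185, 0.199 and 0.381 CPM to 3.35, 11.1 and 6.38 (4.64 ± 0.29). Egr3 was almost unread in untreated cells, with 5 reads over 3 libraries against 105 at 1 h, and its levels of 0.367, 2.19 and 1.29 CPM again put clone b first. Nab2 followed, from 29.5, 31.3 and 40.5 CPM to 48.8, 93.0 and 74.7 (log2 1.03). Of the 5 members tested 4 rose, with a median change of 4.26 against -0.02 over all genes. After the GC trend was taken out 3 rose, against 3.6% of all genes, and Nab2 had an adjusted p of 0.066.

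Among the AP-1 genes, whose products pair as FOS-JUN or with small MAF proteins on DNA, 6 of 12 rose (median 0.99). The same count held with the GC trend removed, and 9 rose without clone a. Fos, at chr12:85473890-85477273 in GENCODE M21 (GRCm38), went from 3.15, 3.42 and 2.60 CPM to 33.7, 99.9 and 71.5. No treated value came near an untreated one (4.35 ± 0.25, adjusted p = 1.1e-05). Jun went from 2.01, 3.46 and 2.80 CPM to 6.45, 62.9 and 14.4, a rise (2.92 ± 0.35) that clone b carried furthest. Junb was more even, from 4.32, 8.997 and 11.9 to 31.9, 66.7 and 61.4 CPM (2.71 ± 0.19). The small MAF genes Maff, Mafk and Mafg completed the 6, with Mafg at a log2 change of 0.46. Jun, Junb and Mafg share exon sequence with the neighbours Junos, Prdx2 and Sirt7, and since the strand setting of the counting is not given in the sources used here, reads of such pairs cannot be told apart.

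Other immediate-early genes rose in 13 of 28 cases, with a median of 0.32 (9 of 28 with the GC trend removed and 12 without clone a). Ier2, a small nuclear protein gene, had an even change: 26.1, 34.6 and 34.5 CPM became 78.6, 110 and 98.5 (1.59 ± 0.08). Myc, the growth-promoting transcription factor, was at 21.5, 26.7 and 31.1 CPM and then at 75.2, 82.8 and 106 (1.74 ± 0.14). Untreated and treated ranges lay far apart for both, and clone changes differed little. Arc, a cytoskeletal gene known from activity-stimulated neurons, went from 19.4, 29.6 and 30.3 CPM to 67.5, 342.5 and 201 (2.66 ± 0.26). Ptgs2, which encodes the cyclooxygenase of prostaglandin synthesis, went from 5.37, 4.06 and 3.32 CPM to 12.5, 25.4 and 18.5 (2.03 ± 0.35). Nr4a1, an orphan nuclear receptor, rose by a log2 change of 0.60, and Cyr61 and Ctgf, matricellular genes also known as YAP targets, by 1.11 and 0.67. Ctgf had an adjusted p of 0.0499 and 0.062 with the GC trend removed.

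Factors that destroy mRNA, among them proteins that bind AU-rich messages of early genes, also rose. Of 7 tested, 4 rose as counted and 4 with the GC trend removed (median 0.77). Zfp36, which encodes tristetraprolin, went from 4.60, 4.70 and 6.37 CPM to 12.1, 21.5 and 22.7 (1.80 ± 0.15), with all treated clones above all untreated ones. Its relatives Zfp36l1 (1.18) and Zfp36l2 (0.77) rose too, as did Zc3h12a, the RNase Regnase-1 (0.89). Zfp36l2 had an adjusted p of 0.068 after the GC trend was taken out.

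Feedback inhibitors of the pathway were the next group. Sprouty and SPRED proteins restrain signalling between receptor and RAF, and 3 of 7 tested rose. Spry4 went from 43.1, 51.0 and 54.6 CPM to 254, 670.5 and 569 (3.19 ± 0.20, adjusted p = 1.8e-05), and Spry2 from 47.1, 44.3 and 53.5 to 91.0, 102 and 104.5 (1.04 ± 0.09). For both genes the untreated libraries lay close together and the treated ones well above them. Spred3 rose by 0.48 (adjusted p = 0.04; 0.11 with the GC trend removed). Of 11 dual-specificity phosphatases 3 rose, and the median of the list was 0.64. With the GC trend removed 2 rose, and without clone a 5 rose and 1 fell. Dusp6, the cytoplasmic ERK phosphatase, went from 48.9, 53.6 and 56.3 CPM to 146, 138 and 171 (1.52 ± 0.09), with changes of 1.58, 1.37 and 1.60 in the 3 clones. Dusp1, a nuclear phosphatase, rose by 1.43 and Dusp4 by 0.99, the latter with an adjusted p of 0.086 when the GC trend was removed. Phlda1, from a family of pleckstrin-homology proteins, went from 35 to 214 reads (2.62 ± 0.48), and was the 1 gene of 6 to rise in its list. Nab2, Zfp36, Dusp1, Phlda1 and Bmp4 overlap exons of other genes as well.

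ETS factors are direct ERK substrates or targets, and 5 of 17 rose, with 1 falling (4 and 1 with the GC trend removed, 6 and 2 without clone a; median 0.10). Erf, an ETS repressor that ERK moves out of the nucleus, went from 40.6, 63.9 and 85.5 CPM to 85.8, 113 and 132 (0.84 ± 0.11), so that the groups met without overlapping and each clone rose from its own start. Etv4 rose by 0.48 and Etv5, at 295 to 307 CPM untreated and 357 to 403 at 1 h, by 0.32. Etv1 rose as well and Spic fell. Cic, the Capicua repressor whose release ERK controls, rose by 0.38 as counted but by 0.14 with the GC trend removed (adjusted p = 0.21). The pathway's own genes changed by small amounts: of 21 RAF, MEK, ERK and RAS genes, Hras, Mknk2 and Map2k2 rose by 0.28, 0.34 and 0.37. All 3 of these calls were lost with the GC trend removed, where 1 other gene of the list passed, and under library totals, where none did.

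**Figure D2:**
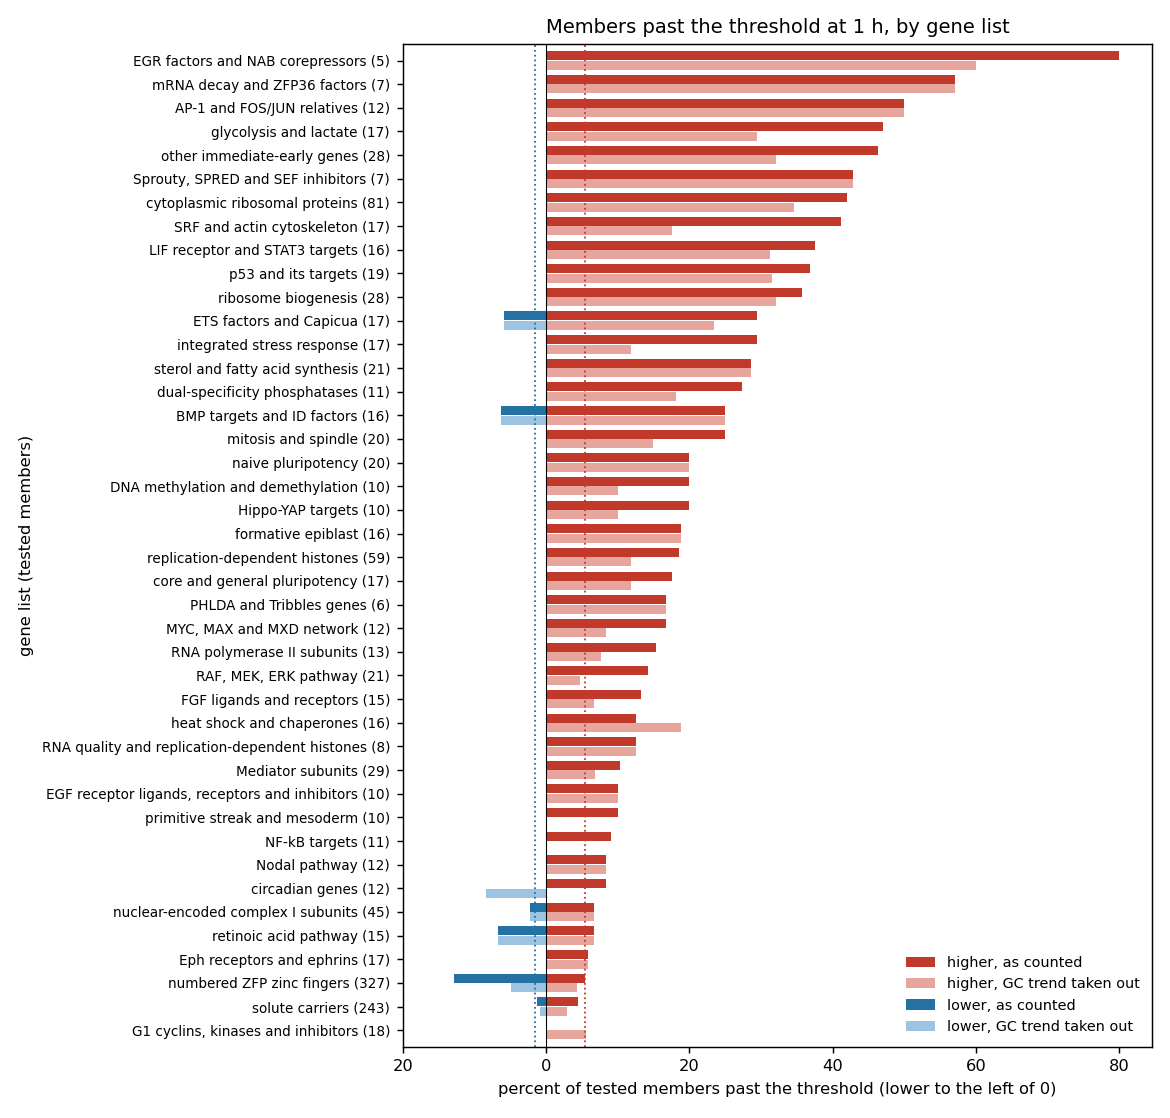
Bars give the percentage of tested members of each gene list that rose (right) or fell (left) past the threshold, as counted (dark) and with the GC trend of each library removed (pale); dotted lines mark 5.41% and 1.58%, the shares of all tested genes. EGR, mRNA decay and AP-1 lists stand highest at 80%, 57.1% and 50%, and numbered ZFP genes are the list with the highest share of falls, 12.8%.

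In the EGF, Eph, FGF and Nodal lists 1 or 2 genes each rose, and Hbegf and Epha2 rose most. The shares that rose ran from 5.88% (Eph) to 13.3% (FGF), against 5.41% of all tested genes. Whether shares in lists this small differ from that of all genes was not tested. Hbegf, a membrane-bound EGF receptor ligand, went from 24.7, 23.3 and 28.3 CPM to 40.9, 79.8 and 73.5 (1.23 ± 0.28) and was the 1 gene of 10 to pass among EGF receptor ligands, receptors and inhibitors. Epha2 was the 1 of 17 Eph receptors and ephrins to rise (5.88%, near the share of all genes): 157, 201 and 182 CPM became 414, 697 and 593, with no overlap (1.62 ± 0.11, adjusted p = 2.9e-05). Of 15 FGF ligands and receptors Fgf17 (0.54) and Fgfrl1, a receptor that lacks the kinase (0.53), rose. Fgfrl1 had an adjusted p of 0.075 with the GC trend removed. Among 12 Nodal pathway genes Nodal itself rose by 0.59 ± 0.10. None of 10 Notch targets or 13 Wnt targets passed with edgeR, DESeq2 or voom, and 0 and 1 had an unadjusted p below 0.05. Npy and Pomc, precursors of secreted peptides, rose from low levels, Npy from 28 to 92 reads and Pomc from 17 to 50 over the 3 libraries (1.80 and 1.60). Both of these calls and that of Hbegf were lost when any single library other than untreated clone a was left out. The Hbegf call was also lost in the robust fit.

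The BMP and ID list split. ID proteins hold helix-loop-helix factors off DNA and are usual targets of BMP signalling. Id3, at chr4:136143497-136145755, went from 4.78, 8.80 and 6.47 CPM to 28.7, 39.7 and 32.5 (2.36 ± 0.13, adjusted p = 1.1e-05), a change of much the same size in every clone. Id1, Bmp4 (1.08) and the inhibitory Smad7 (0.67) rose too. Id2 went the other way, from 33.9, 41.8 and 34.9 CPM to 26.5, 22.0 and 19.0 (-0.72 ± 0.13, adjusted p = 0.011). In all, 4 of 16 rose and 1 fell, with the same counts after the GC trend was removed and without clone a.

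The factors of the stem cell state moved little or did not pass. Nanog stood at 655, 717 and 725 CPM untreated and 665, 832 and 853 at 1 h (adjusted p = 0.42; 0.037 without all libraries of clone a, where the change was 0.22), and Sox2 at 403, 364 and 353 against 451, 363 and 408 (adjusted p = 0.47). Esrrb, Tbx3 and Klf4 did not pass either, with adjusted p of 0.6, 0.81 and 0.57 by edgeR. Klf4 did pass in 1 of 20 alternatives, the edgeR fit on the 6 libraries alone (adjusted p = 0.047). Of 20 naive pluripotency genes 4 rose, all by less than 0.5: Nr0b1 0.45, Zfp42 0.43, Zfp57 0.36 and Klf5 0.33. The count was 4 with the GC trend removed, 6 without clone a and 2 under library totals. Of 17 core genes 3 rose (17.6%), Pou5f1 by 0.36, Dppa2 by 0.40 and Utf1 by 0.63. The core count was 2 with the GC trend removed, 4 without clone a and 1 under library totals. With the trend removed the Pou5f1 value was 0.20, and Utf1 lost its call (0.36, adjusted p = 0.051). Pou5f1 shares exons with Gm19553. Among 16 formative genes the ZIC factors Zic2 (1.02) and Zic5 (0.61) rose with Etv4. None of 17 primitive endoderm, 12 trophoblast or 4 neural genes passed with edgeR. At an unadjusted p below 0.05 there were 4, 0 and 1 of them, DESeq2 called 1, 0 and 0, and voom called 0 of each. Without clone a, 1 neural gene fell. Gata6, a primitive endoderm factor, was at 0.802, 0.518 and 1.25 CPM against 0.612, 0.318 and 1.33 (adjusted p = 0.68), with 75 and 59 reads in all. Evx1, a primitive streak factor, went from 87 to 181 reads (1.14) and did not pass with the GC trend removed (adjusted p = 0.066).

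LIF and STAT3 genes rose in 6 of 16 cases (5 with the GC trend removed, 4 under library totals), of which Fos and Junb are also AP-1 genes. Pim3, a serine kinase gene, rose most evenly of the others (0.91 ± 0.06, from 125 to 157 CPM up to 230.1 to 306), and Stat3 itself rose by 0.36. SRF and actin cytoskeleton genes numbered 7 of 17 as counted and 3 with the GC trend removed. Actg1 (0.73) and Actb (0.31) passed both ways, whereas Srf, with a transcript of 64.4% GC, went from 0.48 to 0.18 (adjusted p = 0.099). Of 19 genes of p53 and its targets 7 rose, or 36.8% against 5.41% of all tested genes. Among them were Plk2 (0.78), Btg2 (0.75), Aen (0.35) and Sesn2 (0.56). With the GC trend removed 6 rose, without Sesn2, and 8 rose without clone a. Plk2, Btg2 and Plk3 of these 7 are also counted in the immediate-early list, and Sesn2 in the stress response list. Srf is likewise counted in the immediate-early list. Among mitotic genes Plk1, Aurka, Cdc20, Aurkb and Ube2c rose, 5 of 20 (25.0%), by 0.22 to 0.44 for the first 4. The count was 3 with the GC trend removed, where Cdc20 and Ube2c lost their calls, 3 under library totals, where Aurkb was among those lost, and 9 without clone a. None of 18 G1 cyclins, kinases and inhibitors passed with edgeR (5 at an unadjusted p below 0.05, 1 by DESeq2 and 0 by voom), although 1 rose with the GC trend removed and 2 without clone a.

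Growth and metabolism genes rose in larger numbers and by small amounts. Shares were 42.0% for ribosomal protein, 35.7% for ribosome biogenesis, 47.1% for glycolysis and 28.6% for sterol genes, against 5.41% of all tested genes. Rises were also more frequent among highly counted genes, at 178 of 1419 in the top decile of mean level against 6 in the lowest. The part that level has in these counts was not tested. Of 81 ribosomal protein genes 34 rose (median 0.24). Counts were 28 with the GC trend removed, 40 without clone a and 13 under library totals. Rps2 rose by 0.76, Rpsa by 0.57, Rpl3 by 0.57 and Rpl12 by 0.37. Rps2 and Rpl12 hold small nucleolar RNA genes, and ribosomal protein genes have many near-identical pseudogene copies that the counting could split. Of 28 ribosome biogenesis genes 10 rose, including the methyltransferase gene Fbl (0.50), Bysl (0.36), Rrs1 (0.44) and Rrp12 (0.34). The count was 9 with the GC trend removed, 12 without clone a and 5 under library totals. Glycolysis and lactate genes rose in 8 of 17 cases, with 5 after the GC trend was removed, 11 without clone a and 4 under library totals. Eno1, the enolase gene, went from 225 to 303 CPM up to 330 to 412.5 (0.46 ± 0.05), and the lactate transporter gene Slc16a3 (0.56), Pfkl (0.43) and Aldoa (0.28) rose with it. Of 21 sterol and fatty acid genes 6 rose as counted, 6 with the GC trend removed and 11 without clone a, among them the synthase gene Fasn (0.41) and Insig1 (0.60). Solute carriers as a class (243 genes, 11 higher and 3 lower) and complex I subunits (45 genes, 3 and 1) rose in 4.53% and 6.67% of cases, near the share of all genes. The zinc importer Slc39a14 rose by 0.87.

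Counts for histone and zinc finger classes changed when the GC trend was removed. Of 59 replication-dependent histone genes 11 rose (median 0.55). Their median change was 1.27 in clone a, 0.27 in b and 0.12 in c. Without clone a, 6 rose and 3 fell, and 7 rose with the GC trend removed. Hist1h2bk, for example, went from 8.21, 11.7 and 16.4 CPM to 30.5, 21.4 and 20.1. Of 327 numbered ZFP genes, mostly KRAB-type repressors with AT-rich transcripts (median GC 44.1%), 42 fell and 18 rose. These are 12.8% and 5.5%, against 1.58% and 5.41% of all tested genes. Zfp36, Zfp36l1, Zfp36l2, Zfp42 and Zfp57 among the rises are also counted in lists above. With the GC trend removed 16 fell and 14 rose, or 4.89% and 4.28%, against 1.36% and 3.6% of all tested genes. Without clone a 73 fell and 26 rose, and under library totals 102 fell and 14 rose. The part that this trend and RNA handling have in these classes was not tested.

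The 15 largest falls among genes of at least 1 CPM, with Gm, Rik and date-like symbols left out, were of mixed kinds. Larger falls lay outside this filter, up to 1.87 on the log2 scale. The 32 genes that fell at least 2-fold had a median of 0.877 CPM, and 8 of them had Gm or Rik symbols. Kcnk3, a background potassium channel gene at chr5:30588170-30625271, fell most of the 15: 5.37, 3.86 and 4.50 CPM became 3.10, 0.884 and 1.03 (-1.60 ± 0.29, adjusted p = 0.013). Nlrp9c, of the NLR family, went from 6.57, 6.93 and 7.44 CPM to 3.31, 1.80 and 2.39 (-1.54 ± 0.27). Rgma, which encodes a guidance molecule that also acts as a BMP coreceptor, had the smallest adjusted p of the 15 (0.0025), from 7.34, 5.93 and 7.89 CPM to 4.16, 2.65 and 3.15 (-1.10 ± 0.14). In all 3 genes the treated libraries lay below the untreated ones in every clone. The zinc finger genes Zfp536 (-1.09), Zfp273 (-1.01) and Zfp786 (-0.92) also fell. So did Rasl11b, a RAS-like GTPase gene (-1.004), Cldn14, a claudin (-0.98), P2rx3, an ATP-gated channel (-0.93), Dgkg, a diacylglycerol kinase (-0.93) and the cytokine gene Il7 (-0.91). The other 4 were Casc1 (-1.25), Cerkl (-1.19), Fam228a (-1.05) and Klk9 (-0.94). Casc1 and Il7 missed the threshold once the GC trend was removed (adjusted p = 0.051 and 0.078), and P2rx3 and Dgkg without clone a (adjusted p = 0.06 and 0.074). Of the 15, 8 share exons with a neighbour. The counts behind them are small, and leaving out any 1 of the 5 libraries other than untreated clone a left 2 to 7 of the 15 calls. Dhrs3, a retinaldehyde reductase gene, fell by 0.69 on the log2 scale while the receptor gene Rarg rose by 0.61.

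The clones differed in the size of the largest changes. The 35 genes named for the largest changes at 1 CPM or more were chosen to move the same way in all 3 clones, so their shared direction is no result. Their untreated and treated ranges did not overlap, which was true of 19.9% of all tested genes. Among the 20 rises the median change was 1.58 in clone a, 3.13 in b and 2.41 in c, and clone b had the largest change for 16 and clone a the smallest for 15. Among the 15 falls the medians were -0.77, -1.37 and -1.10, with clone b largest for 12 and clone a smallest for 12. Egr3 spread most, at 1.17, 4.96 and 3.67, with few reads behind the first value, followed by Sec14l5 (1.12, 3.89 and 2.55), Egr1 (3.65, 6.25 and 5.13) and Jun (1.65, 4.16 and 2.34). Ier2 (1.59, 1.66 and 1.51), Myc (1.80, 1.63 and 1.76) and Id3 (2.57, 2.17 and 2.32) hardly differed between clones. Esr1 reads were also highest in clone b, and the part this has in the order of the clones was not tested. The order turned over for the bulk of small rises: over all 768, clone a had the largest change for 472 and clone c the smallest for 493. Across all tested genes, which are not independent replicates, the changes of clones b and c (n = 14185) correlated at r = 0.55, of a and b at 0.36 and of a and c at 0.33.

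**Figure D3:**
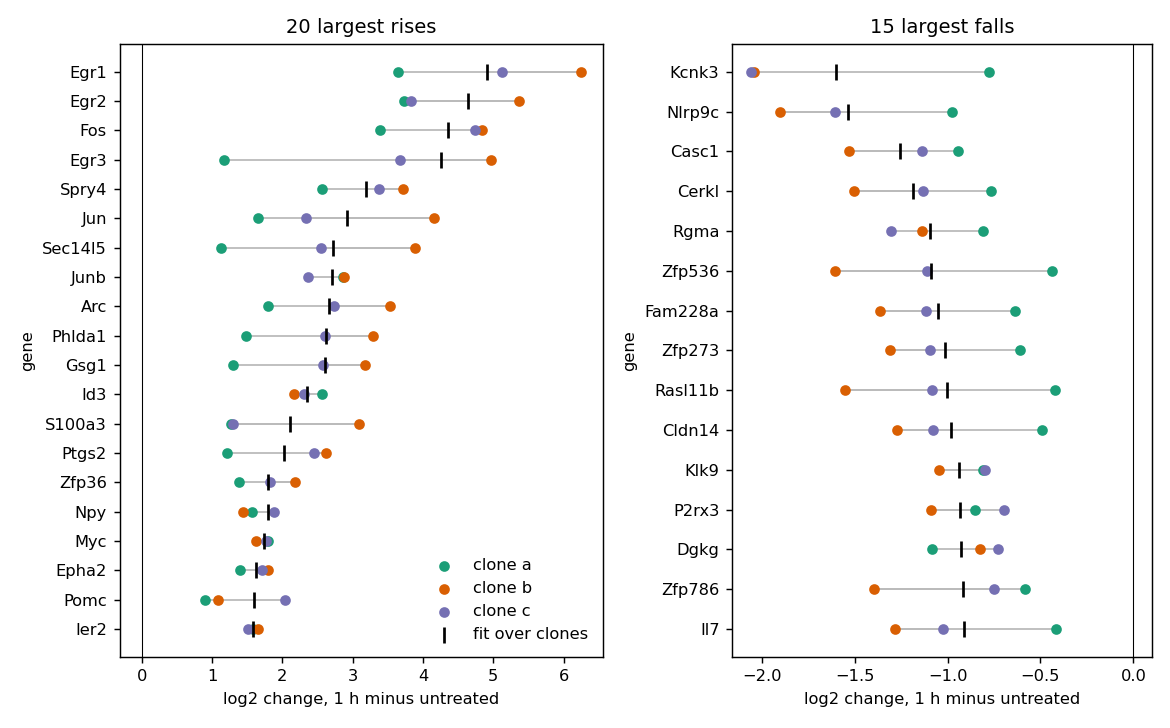
Points show the log2 change at 1 h within each clone for the 20 largest rises (left) and 15 largest falls (right), and black ticks the fit over clones. Both sets were taken from genes of at least 1 CPM without Gm, Rik or date-like symbols. The genes were chosen to move one way in all clones, so all points of a gene lie on 1 side of 0; clone b is usually farthest from 0 and clone a nearest, while Ier2, Myc, Id3 and Junb lie close together.

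Clone a's excess of small rises went with GC content. Across 14038 genes with a known transcript, the log2 change and GC content had a Spearman rho of 0.57 in clone a, 0.17 in b and 0.02 in c. In the decile of genes with the highest GC content the median change was 0.42 in clone a, 0.14 in b and 0.04 in c. That decile held 218 rises and 6 falls, and the lowest decile 7 and 70. With the GC trend removed the same counts were 71 and 35 at the top and 46 and 19 at the bottom, and 510 genes rose (3.6%) and 193 fell (1.36%) in all. Of the 768 and 224, 396 and 120 passed in that fit as well. Of the 20 largest rises 19 did, with Npy at an adjusted p of 0.066.

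**Figure D4:**
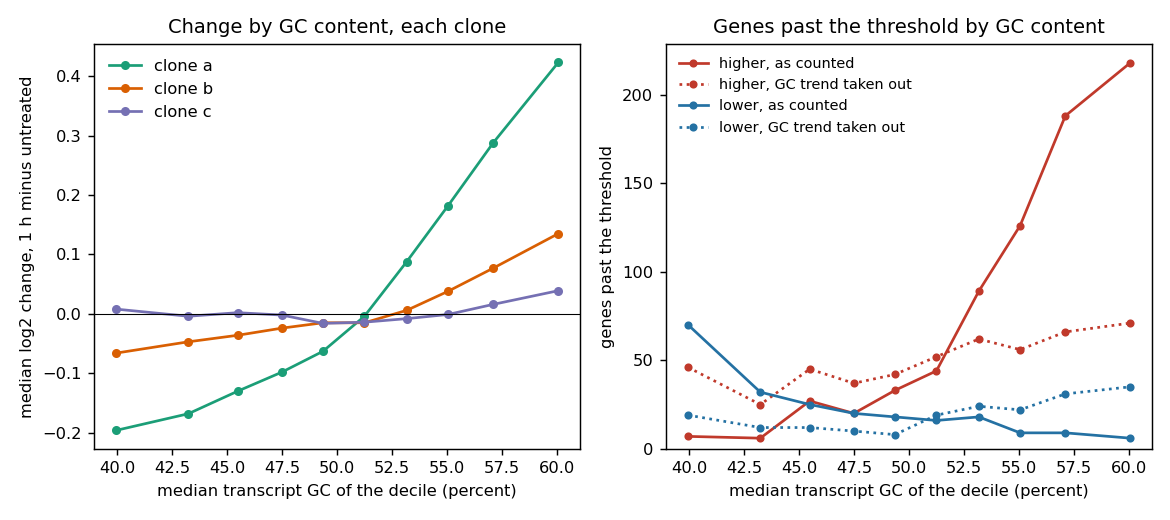
Left, the median log2 change at 1 h in deciles of genes ordered by transcript GC content (x axis, percent), for each clone; right, the number of genes past the threshold in each decile, as counted (solid) and with the GC trend removed (dotted). Clone a climbs from -0.20 to 0.42 and clone c stays within 0.04 of 0, and rises in the top decile go from 218 to 71 once the trend is removed.

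Genes with large rises were short and had few exons. Of the 57 that rose at least 2-fold, 54 were annotated, and these had a median span of 5552 bp and 3 exons, against 25448 bp and 9 exons over all tested genes, and 29.6% had 1 or 2 exons against 8.2%. Among all 768 the median span was 12407 bp with 9 exons, and among the 224 that fell it was 21821 bp with 5. The 32 that fell at least 2-fold also had few exons (median 4, with 25.0% at 1 or 2) but a median span of 22827 bp. Of the 54, 42.6% span under 5000 bp against 11.2% of all genes, Fos, Jun, Junb, Ier2, Id3 and Phlda1 among them, whereas Epha2 and Sec14l5 are longer.

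Later libraries of the same clones showed where these changes went. The 2 h and 4 h values share the untreated controls with the 1 h values. A separate contrast tested the step from 1 to 2 h, where 12.6% of all tested genes passed. That contrast subtracts the 1 h libraries by which the genes were chosen, and this choice favours a step back toward the untreated level. Of the 20 rises, 13 went further up by 2 h. Egr3 climbed to a mean of 15.4 CPM (2 h over 1 h, log2 3.65), Phlda1 to 13.7 (2.33), Jun to 79.6 (1.63), Arc to 533 (1.44), Spry4 to 839 (0.78) and Myc to 130.2 (0.55). Ier2 was the 1 gene to turn back (-0.34). Egr1 (mean 294 CPM at 1 h, 175 at 2 h and 94.8 at 4 h), Fos (68.4, 45.8 and 19.4) and Egr2 (6.94, 5.63 and 1.97) had their highest means at 1 h, but their step to 2 h did not pass (adjusted p = 0.2, 0.098 and 0.41). Junb, Id3 and Zfp36 did not pass either. Dusp6, Nab2 and Bmp4 went on upward by 1.13, 1.88 and 1.31. Of the 15 falls, Nlrp9c, Rgma (-1.54) and Il7 went further down and the other 12 did not pass. Nanog, which did not pass at 1 h, was at a mean of 674 CPM at 2 h and 282 at 4 h, and Tbx3 had a step of -0.87 from 1 to 2 h.

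**Figure D5:**
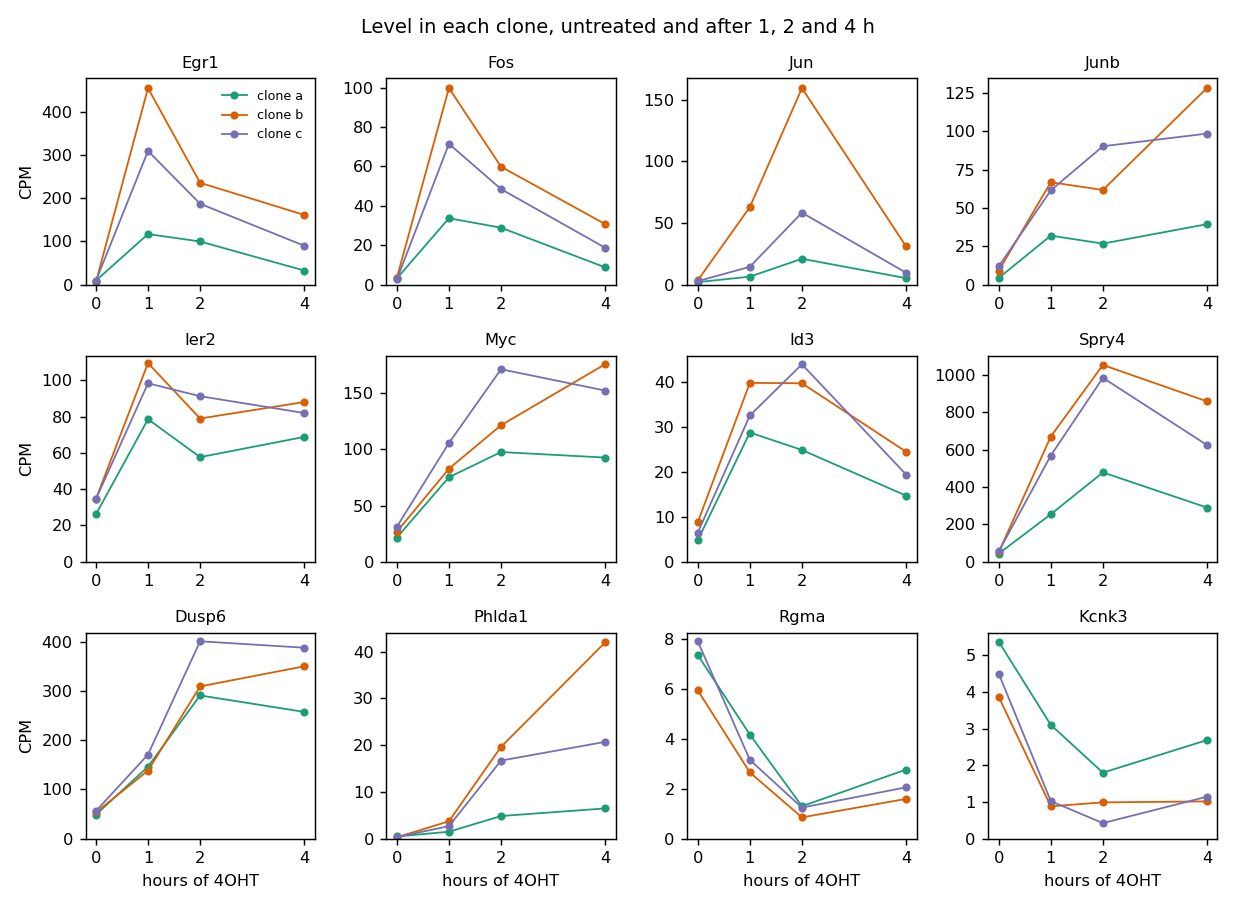
Levels in CPM (y axis, from 0) of 12 genes in clones a, b and c without 4OHT and after 1, 2 and 4 h (x axis). Egr1, Fos and Ier2 have their highest mean at 1 h, Jun and Spry4 at 2 h, Phlda1 is highest at 4 h, and Rgma and Kcnk3 are below their untreated levels from 1 h on.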

How the data were processed

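RNA counts of 12 libraries (3 clones, untreated and after 1, 2 and 4 h of 4OHT) were used as the authors deposited them, as whole-number counts per gene symbol in 1 table. STAR, featureCounts, DESeq and mm10 are named per the submitters' processing notes; for versions, annotation and strand setting the sources used here give nothing. All 12 libraries entered an edgeR 4.0.16 quasi-likelihood fit (R 4.3.3, filterByExpr with a minimum count of 10, TMM) with time and clone as terms, and the contrast 1 h minus untreated was adjusted by Benjamini-Hochberg. Standard errors are approximate (change divided by the root of F). Changes per clone use log2 CPM with a prior count of 2. Same-clone libraries deviated together from the mean of their time (untreated with 1 h, r = 0.31, 0.51 and 0.46), so the clone letters were used as pairs. Values for different clones (-0.35 to -0.08) are pushed below 0 by this centring and add no separate support. Whether a batch shared under a letter adds to the pairing was not tested. The GC trend is a loess curve per library over transcript GC (GENCODE M21, GRCm38, matched by symbol), used as an offset and chosen after seeing the data. limma 3.58.1 and DESeq2 1.42.0 served as alternatives. Named genes were the 20 largest rises and 15 largest falls (at least 1 CPM, same direction in 3 clones, no Gm, Rik or date-like symbols, of which the table holds 24), up to 4 members past the threshold from each of 43 lists and 8 classes, and a fixed panel, of which 1 gene is not reported here. The comparison, lists and classes were chosen with earlier results of these data known. The methods were tested on simulated data.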

Additional observations from a re-analysis of the deposited data

How the results depend on the processing

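Counts are given as higher, lower, higher at least 2-fold and lower at least 2-fold, with 768, 224, 57 and 32 as the reference. Without the replicate block they were 11, 0, 9 and 0 (unadjusted 1073 higher and 557 lower by edgeR), and the test against a 1.5-fold change gave 21, 0, 20 and 0 (unadjusted 115 and 108). DESeq2 gave 1030, 268, 52 and 16, voom 771, 235, 58 and 26, and library totals 294, 754, 43 and 61. The 6 libraries alone gave 724, 371, 63 and 49, a minimum of 1 CPM 698, 260, 52 and 21, and the GC trend taken out 510, 193, 42 and 33. Leaving out 1 library or 1 clone gave 12 to 1109 higher, 0 to 587 lower, 9 to 82 at least 2-fold higher and 0 to 99 at least 2-fold lower. These fits also hold fewer libraries, and the cause of the shifts was not tested. RLE factors, no filter and the robust fit kept each count within 1.5 times. Of the 133 genes past the threshold that the naming rule selects, 9 passed without the block, 99 under library totals and 102 with the GC trend taken out; no named gene past the threshold changed sign while called. Depth limits the precision of low genes: genes that fell had a median level of 9.38 CPM, against 76.6 for genes that rose.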

Other observations

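Lists not described above had 1 to 5 members each that rose, for those named here. Their shares ran from 8.33% (circadian genes) to 29.4% (integrated stress response), against 5.41% of all tested genes. With the GC trend taken out the shares ran from 0% (NF-kB targets, circadian genes) to 18.8% (heat shock and chaperones), against 3.6%. Whether shares in lists this small differ from that of all genes was not tested. Of 17 integrated stress response genes 5 rose, among them Slc3a2 (log2 0.19), Shmt2 (0.32), Ppp1r15a (0.25) and Atf4, and 2 did with the GC trend taken out. Dnajb1 (0.49) and Hspb1 (0.50) rose among 16 heat shock and chaperone genes, Uhrf1 (0.31) and Dnmt3l (0.21) among 10 DNA methylation genes, and Med25, Med22 and Med16 among 29 Mediator subunits. With the GC trend taken out Dnmt3l, Med22 and Med16 lost their calls. Polr2f (0.37) and Polr2e (0.40) rose among 13 RNA polymerase II subunits, Nfkbiz (0.51) among 11 NF-kB targets, and Mnt, a MYC antagonist gene (0.47), beside Myc among 12 genes of its network. Of these Polr2f, Nfkbiz and Mnt lost their calls with the GC trend taken out. Of 12 circadian genes Per1 rose (0.50) as counted, and with the GC trend taken out 1 other gene fell.

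Beside the falling zinc finger genes, Zfp296, a pluripotency-associated factor, rose from 28.4, 37.7 and 44.4 CPM to 60.2, 121 and 106 (1.36 ± 0.15), with no overlap between the groups. It was at a mean of 46.7 CPM at 4 h, and the step from 1 to 2 h did not pass. Plk2 and Btg2 had a like course, with means of 20.6 and 29.3 CPM untreated, 36.0 and 48.5 at 1 h and 24.8 and 34.8 at 2 h. Their step from 1 to 2 h passed (-0.53 and -0.50), though choosing genes by their 1 h values favours a step back. The complex I gene Ndufb4 fell by 0.34 on the log2 scale while Ndufb7, Ndufb8 and Ndufa2 rose.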
